A study of Mus musculus with 9 samples.

Results

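The 10 genes of the T cell receptor complex and its co-receptors, with the proximal kinases, were followed across bulk RNA sequencing of mouse glioma tissue. They are Cd3d, Cd3e, Cd3g, Cd247, Cd4, Cd8a, Cd8b1, Cd2, Lck and Zap70, chosen by name from the gene symbols of the files, and all 10 of the 10 were found among the 18639 entries. All 10 also passed the filter on low values (1 TPM or more in at least 3 libraries), which left 13829 genes to test. TPM is transcript abundance per length of gene, scaled to a common sum in each library.

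The tissue came from tumours of CT2A, a mouse glioblastoma line (wild type here, labelled Murine GBM), in mouse brains on day 5 after resection. There were 3 treatments with 3 libraries each, numbered as in their titles: sECM only (an abbreviation that the labels leave unexplained, given without cells), GFP-TC (control cells) and ThTC (CT2A cells secreting IFNβ and GM-CSF). All treatments shared the CT2A tumour and its resection. The labels name no strain, age or sex, and do not say whether the 3 libraries of a treatment are 3 animals. The p-values therefore cover the spread among libraries, which may be technical.

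The T cell receptor binds peptide on MHC molecules but has no signalling tail of its own. The CD3 subunits (Cd3d, Cd3e, Cd3g) and the zeta chain (Cd247) carry the tyrosine motifs that signal for it. The co-receptors CD4 and CD8 bind MHC class II and class I and bring the kinase LCK, which phosphorylates those motifs, and ZAP-70 then docks on them and passes the signal on. CD2 is an adhesion receptor of T cells and NK cells. In brain tumours these genes are read as markers of infiltrating T cells. CD2, the zeta chain, LCK and ZAP-70 are known from NK cells too, CD4 from macrophages and dendritic cells, and CD8α from a class of dendritic cells.

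Several members are neighbours in the genome (RefSeq genes of GRCm38.p6, positions counted from 1). Cd3g (chromosome 9, 44969572 to 44980431), Cd3d (44981769 to 44987052) and Cd3e (44998735 to 45009663) lie within 40092 bases of each other, and 1337 bases separate Cd3g from Cd3d, which are transcribed away from each other. Cd8b1 (chromosome 6, 71322788 to 71337492) and Cd8a (71373427 to 71379171) are 35934 bases apart, and Cd4 lies on the same chromosome (124864693 to 124888247). The other members are on chromosome 1 (Cd247, 165779952 to 165871153, and Zap70, 36761798 to 36782821), chromosome 3 (Cd2, 101275908 to 101287939) and chromosome 4 (Lck, 129548344 to 129573641). All 10 are protein-coding, and the values below cover each gene as a whole.

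The bases before the start of the 3 CD3 genes and of Lck are shown because these are clustered or functionally linked members whose levels moved together across the libraries. Cd8a, clustered with Cd8b1, moved with them too. Its window held 0 matches to the letters given below and is not printed. The Zap70 window outside its gene is not printed either. The bases come from RefSeq's promoter windows (GRCm38.p6), matched by symbol for 7 of the 10 members in 10 windows, are written 5′ to 3′ on the gene's strand, and leave out any base inside the gene. Capitals mark letters that 4 families of transcription factors are known to bind, on either strand. For the ETS family the letters searched were AGGAAG. Those of the RUNX family were TGTGGT. Those of the TCF and LEF family were CTTTGA. Those of the GATA family were AGATAA. The positions are chr9:44980432-44980681 (minus strand) for Cd3g, chr9:44981536-44981768 (plus) for Cd3d, chr9:45009664-45009861 (minus) for Cd3e and chr4:129573642-129573891 (minus) for Lck.
Cd3g: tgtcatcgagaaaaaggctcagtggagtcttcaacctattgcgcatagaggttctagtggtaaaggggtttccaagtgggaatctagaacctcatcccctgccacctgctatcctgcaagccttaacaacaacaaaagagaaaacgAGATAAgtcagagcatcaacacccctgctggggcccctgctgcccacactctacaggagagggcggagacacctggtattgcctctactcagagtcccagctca
Cd3d: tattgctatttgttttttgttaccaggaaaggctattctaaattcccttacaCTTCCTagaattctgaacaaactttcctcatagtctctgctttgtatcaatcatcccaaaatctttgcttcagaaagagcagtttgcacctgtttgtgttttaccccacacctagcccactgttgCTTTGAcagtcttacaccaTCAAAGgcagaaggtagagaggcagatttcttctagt
Cd3e: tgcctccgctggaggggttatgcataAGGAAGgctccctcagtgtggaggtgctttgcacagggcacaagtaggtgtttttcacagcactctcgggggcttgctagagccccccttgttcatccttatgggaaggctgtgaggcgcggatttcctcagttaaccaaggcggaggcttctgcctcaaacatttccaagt
Lck: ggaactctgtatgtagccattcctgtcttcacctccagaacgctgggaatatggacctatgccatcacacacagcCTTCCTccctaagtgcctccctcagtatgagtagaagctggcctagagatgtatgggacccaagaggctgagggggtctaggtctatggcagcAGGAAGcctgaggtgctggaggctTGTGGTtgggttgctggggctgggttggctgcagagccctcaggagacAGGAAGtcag
Of the 10 member windows of 250 bases, 7 held the ETS letters, 2 the TCF and LEF letters, 2 the RUNX letters and 1 the GATA letters. Among all 32851 windows the shares were 29.5%, 13.8%, 14.1% and 9.99%. Distances are counted from the transcription start on which a window is built, which for Cd3d lies 17 bases and for Cd3e 52 bases inside the gene, so their printed stretches end before it. The pair of neighbours differed: the Cd3g window held the GATA letters, 104 bases before the start, while the Cd3d window held the TCF and LEF letters at 73 and 54 bases and the ETS letters at 198 bases before it. The printed Lck window held the ETS letters at 175, 82 and 10 bases and the RUNX letters at 58 bases before the start. No 2 of these matches shared a base. A match is a description of letters, not of a bound factor.

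The labels state 4.47 Gb of bases per sample, and TPM keeps no read depth, so no counting interval can be given. Of the genes listed for glioma, Vim was at 3262 to 4753 TPM, Sox2 at 117 to 240 TPM and Nes at 35.1 to 62.9 TPM over the 9 libraries. Whether their RNA came from tumour cells was not tested. Some of the listed glioma genes were lower with ThTC. Nes was at 35.1 to 41.8 TPM there, 50.5 to 62.9 TPM in GFP-TC and 45.1 to 57.5 TPM in sECM only. Sox9 was at 39.9 to 61.1, 61.2 to 77.9 and 67.9 to 89.7 TPM in the same order, and both were without overlap. Against GFP-TC 2 of the 8 glioma genes were lower without overlap, beside 16.9% of tested genes. Against sECM only it was 3, beside 12.1% of tested genes. On the log2(TPM + 1) scale 5 of the 8 glioma genes had a lower mean with ThTC in each comparison (medians -0.15 and -0.15, 0 called). Fabp7, Olig2 and Ptprz1 had a higher one on that scale. In TPM the mean of Ptprz1 was lower with ThTC than with GFP-TC (6.91 against 7.31 TPM). The part of this shift in the members' values was not tested. Brain tissue content differed widely within groups: the summed TPM of 10 neuron genes ran from 104 to 1540 with GFP-TC, 184 to 1763 with ThTC and 259 to 462 with sECM only. GFP-TC 1 stands apart for the genes described here, with the lowest value of all 9 libraries for 10 of the 10 members. Results that rest on it are therefore given with and without it where both were computed.

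The 4 signalling subunits of the receptor had their highest means with ThTC. Cd3g had 24.99, 24.8 and 25.4 TPM in ThTC, 0.55, 18.3 and 17.96 TPM in GFP-TC, and 23.3, 5.63 and 8.51 TPM in sECM only (replicates 1, 2 and 3, as in the sentences that follow). All ThTC libraries were above all others for this gene, though sECM only 1 came close. Cd3e, at 12.4, 11.6 and 13.2 TPM in ThTC, had 0.91, 10.8 and 11.6 TPM in GFP-TC and 12.5, 2.69 and 4.27 TPM in sECM only, so the groups overlapped. Cd3d was at 8.14, 8.44 and 7.16 TPM in ThTC, at 0.65, 3.48 and 4.38 TPM in GFP-TC and at 7.21, 1.58 and 2.38 TPM in sECM only. Here ThTC lay above GFP-TC in every library, and sECM only 1 reached the lowest ThTC library. Cd247, the zeta chain, was at 7.39, 7.25 and 7.97 TPM in ThTC, at 0.51, 4.48 and 5.34 TPM in GFP-TC and at 4.68, 3.99 and 4.79 TPM in sECM only. It was the 1 member for which sECM only 1 was not the highest of its group, and all ThTC libraries lay above all 6 others. In bulk tissue, fewer T cells and less of these RNAs per T cell cannot be told apart.

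The co-receptors followed the same libraries. Cd8a, the chain found in both CD8 dimers, was at 12.6, 12.3 and 15.3 TPM in ThTC, at 0.71, 10.9 and 14.4 TPM in GFP-TC and at 15.2, 2.29 and 5.58 TPM in sECM only. Cd8b1, the partner chain of conventional cytotoxic T cells, was at 15.8, 18.1 and 21.8 TPM, at 1.39, 13.2 and 18.5 TPM and at 20.5, 2.34 and 7.38 TPM in the same order of groups. Both CD8 genes overlapped between all groups, with GFP-TC 3 and sECM only 1 as high as the ThTC libraries. Cd4, the helper T cell co-receptor, had the lowest mean of the members in every group: 3.45, 3.09 and 4.09 TPM in ThTC, 1.02, 2.80 and 3.46 TPM in GFP-TC, and 3.21, 1.38 and 2.82 TPM in sECM only. It also varied least, 4.01-fold from the lowest to the highest library, with Zap70 close to it at 4.24-fold and Lck at 6.76-fold. Cd3g varied 46.2-fold, Cd8a 21.5-fold and Cd8b1 15.7-fold.

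Among the kinases, Lck was at 14.1, 13.6 and 15.1 TPM in ThTC, 2.24, 10.53 and 11.01 TPM in GFP-TC, and 12.7, 4.71 and 8.17 TPM in sECM only. Zap70 was at 9.14, 9.27 and 10.4 TPM in ThTC, at 2.44, 7.64 and 7.33 TPM in GFP-TC and at 9.15, 3.94 and 4.90 TPM in sECM only. Both kinases separated ThTC from GFP-TC in every library, and Lck also separated ThTC from sECM only, while Zap70 met sECM only 1 at the margin. Cd2, the adhesion receptor, was at 14.2, 9.82 and 14.8 TPM in ThTC, at 1.45, 5.98 and 12.8 TPM in GFP-TC and at 8.61, 3.91 and 6.36 TPM in sECM only. Its overlap with GFP-TC came from GFP-TC 3 and ThTC 2.

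**Figure D1:**
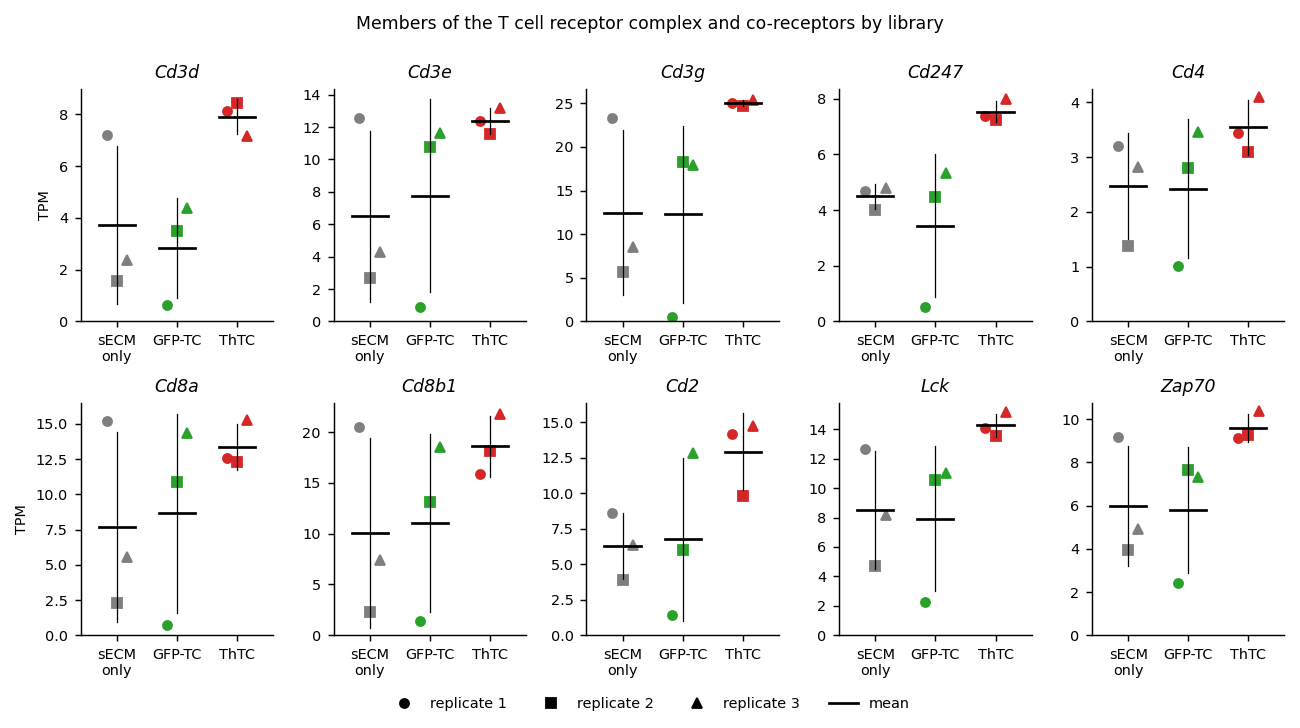
TPM of each member (vertical axes, each starting at 0) in the 9 libraries, by group, with points for libraries, thick lines for group means and thin lines for 1 SD (n = 3). The ThTC libraries sit closest together for Cd3g (24.8 to 25.4 TPM), GFP-TC 1 is lowest in every panel, and sECM only 1 is above the other sECM only libraries in every panel but that of Cd247.

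ThTC against GFP-TC sets the cells that secrete IFNβ and GM-CSF beside the control cells. All 10 members had a higher mean with ThTC, with a median log2 fold change of 1.11 on the log2(TPM + 1) scale, beside -0.10 for all tested genes, of which 33.8% had a higher mean. Cd3g had the largest difference (log2 fold change 1.65, SE 0.92), then Cd3d (1.38, SE 0.52), and Cd4 the smallest (0.48, SE 0.34). None of the 10 passed the test over all genes (limma, Benjamini-Hochberg adjusted p = 0.32 for Cd3d and Cd247, and up to 0.54 for Cd8a), and 0% of all tested genes did. At an unadjusted p under 0.05 there were 2 members, Cd3d and Cd247, both higher, where the background was 2.03% of tested genes higher and 12.9% lower (14.9% in all). Without overlap between the groups there were 5 members, Cd3d, Cd3g, Cd247, Lck and Zap70, all higher with ThTC, while 2.2% of tested genes were higher and 16.9% lower without overlap.

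These differences were smaller without GFP-TC 1 and larger without GFP-TC 3. Without GFP-TC 1 the median log2 fold change was 0.35, with Cd8a at 0.084 and Cd3e at 0.13, and the largest were Cd3d at 0.86 and Cd247 at 0.53 (limma, adjusted p = 0.28 and 0.16). The same 5 members were higher without overlap when that library was left out, beside 6.59% of tested genes (33.2% lower). GFP-TC 1 was the lowest library for every member, so leaving it out could not change which members were free of overlap. Without GFP-TC 3 all 10 members were higher without overlap, beside 6.41% of tested genes (23.7% lower). Same-numbered GFP-TC and ThTC libraries deviated together over the genes for numbers 1 and 3 (correlation 0.74 and 0.87), but little for number 2 (0.12). A block for the number in these 6 libraries gave 9 members that had an unadjusted p under 0.05, as did 17.3% of tested genes in that fit, with 0 members called (limma, adjusted p = 0.13 to 0.33).

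Against sECM only, again all 10 members had a higher mean with ThTC, with a median log2 fold change of 0.99, beside -0.032 for all tested genes, of which 44.4% had a higher mean. Cd8b1 (log2 fold change 1.20, SE 0.85), Cd3g (1.18, SE 0.92) and Cd3d (1.10, SE 0.52) had the largest values and Cd4 the smallest (0.43, SE 0.34). No member was called (limma, adjusted p = 0.69 to 0.76, with 0% of tested genes called), and 0 members had an unadjusted p under 0.05, where 1.54% of tested genes were higher and 5.36% lower at that level (6.9% in all). No overlap was seen for Cd3g, Cd247, Cd2 and Lck, 4 members, all higher with ThTC, against 5.03% of tested genes higher and 12.1% lower. Leaving out sECM only 1, all 10 members were higher without overlap, beside 8.53% of tested genes (22.7% lower), and the median was 1.39. Without sECM only 2 it was 0.55, with 4 members free of overlap, beside 6.70% of tested genes higher (16.0% lower). That library was the lowest of its group for every member, so leaving it out could not change which members were free of overlap. In the 6 libraries alone 6 members had an unadjusted p under 0.05, beside 10.1% of tested genes in that fit. Without GFP-TC 1, which enters this comparison through the shared estimate of spread, 7 members did, beside 10.3% of tested genes. Neither fit called a member. This comparison and the one with GFP-TC share the ThTC libraries.

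In the third comparison the members had mixed directions. Means were compared on the log2(TPM + 1) scale. GFP-TC had a higher mean than sECM only for 2 of 10 members, Cd3e (log2 fold change 0.035, SE 0.73) and Cd8b1 (0.044, SE 0.85). It had a lower mean for 8. The median was -0.14 beside 0.077 for all tested genes, of which 71.8% had a higher mean with GFP-TC. In TPM the mean was also higher with GFP-TC for Cd8a (8.65 against 7.70 TPM) and Cd2 (6.75 against 6.29 TPM). For Cd3d, Cd3g, Cd247, Cd4, Lck and Zap70 the mean in TPM was lower with GFP-TC. Cd247 had the largest difference (-0.55, SE 0.47). No member was called (limma, adjusted p = 0.997 to 0.998, with 0% of tested genes called), and 0 had an unadjusted p under 0.05 (0.499% of tested genes higher, 0.434% lower, 0.933% in all) or groups without overlap (3.15% higher, 1.08% lower). The direction rested on single libraries: without GFP-TC 1 all 10 had a higher mean with GFP-TC, and without sECM only 1 it was 9.

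**Figure D2:**
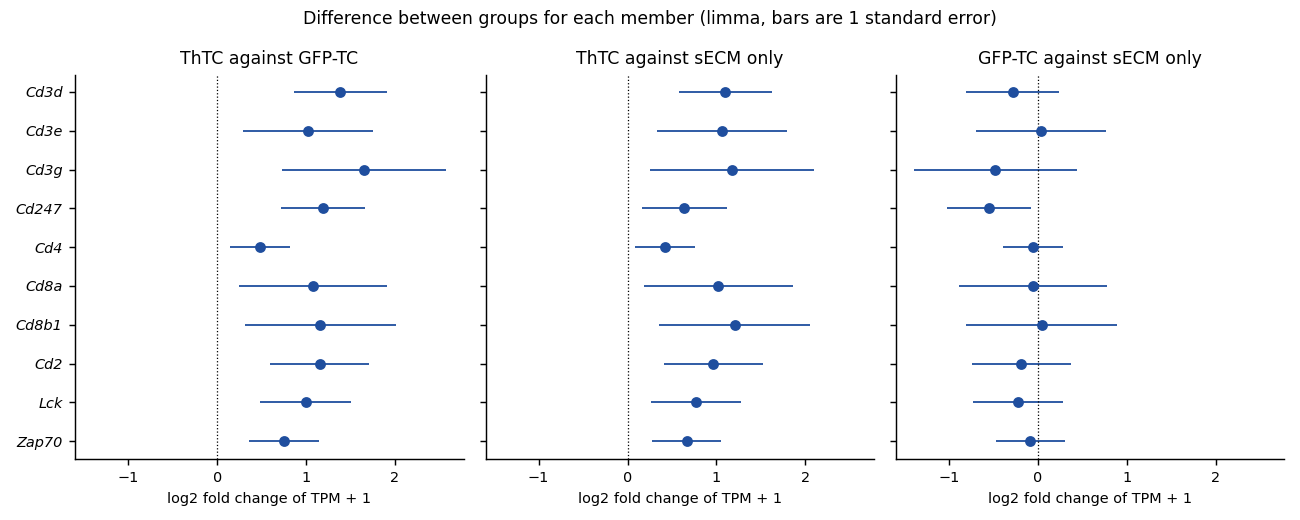
Log2 fold change of TPM + 1 for each member (horizontal axis) in the 3 comparisons, with bars of 1 standard error from limma. All 10 points lie above 0 in both comparisons with ThTC, and 2 of 10 do so for GFP-TC against sECM only.

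The evenness of the ThTC libraries was measured as the SD of log2(TPM + 1) within each group. The median over the 10 members was 0.10 with ThTC, 0.75 with sECM only and 1.20 with GFP-TC, while the median over all tested genes was 0.18, 0.15 and 0.22. The members' median lay above 99.1% of tested genes with sECM only and above 95.1% with GFP-TC, but above 23.1% with ThTC. For 10 of 10 members the SD was smallest in ThTC, as for 30.2% of all tested genes. Cd3g had the smallest SD with ThTC (0.018) and the largest with GFP-TC (2.09). Cd2 had the largest with ThTC (0.30), and Cd247, at 0.12, the smallest with sECM only, where Cd8b1 had the largest (1.34). These 3 ThTC libraries were the ones that ran from 184 to 1763 TPM in neuron genes. That sum ran from 104 to 1540 TPM with GFP-TC and from 259 to 462 TPM with sECM only. A relation between the members' spread and brain tissue content was not tested. The difference in spread was not tested.

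The spread with GFP-TC rested on 1 library. Without GFP-TC 1, an alternative chosen after seeing the data, the members' median SD with GFP-TC was 0.16, beside 0.14 for all tested genes, and the SD was smallest in ThTC for 6 of 10 members (20.8% of all tested genes). With sECM only it did not: the median was 0.39 without sECM only 1, 0.73 without sECM only 2 and 1.04 without sECM only 3, beside 0.097 to 0.13 for all tested genes. The SD was then smallest in ThTC for 10, 7 and 10 of 10 members. With 1 ThTC library left out the ThTC median was 0.034 to 0.14.

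**Figure D3:**
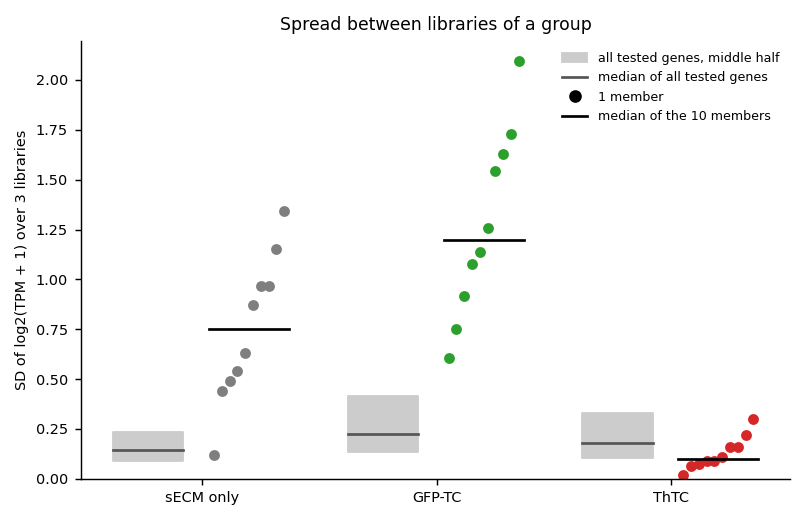
SD of log2(TPM + 1) over the 3 libraries of each group (vertical axis). Points are the 10 members, black lines their medians (0.75, 1.20 and 0.10), grey boxes the range from the lower to the upper quartile of all tested genes and grey lines their medians.

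Ratios within a library do not depend on its total. Ptprc encodes CD45, a phosphatase of all white blood cells that also activates LCK, and had 25.9, 26.9 and 33.96 TPM in ThTC, 10.4, 26.7 and 35.7 TPM in GFP-TC and 22.7, 16.4 and 30.0 TPM in sECM only. The mean of the 3 CD3 genes over Ptprc was 0.586, 0.555 and 0.449 with ThTC, against 0.067, 0.41 and 0.32 with GFP-TC and 0.63, 0.20 and 0.17 with sECM only. All ThTC libraries were above all GFP-TC libraries, 2.56-fold on the mean of log2 ratios (two-sided exact permutation p = 0.10, and no smaller p is possible with 3 libraries against 3). This is a log2 difference of 1.36, which was 0.55 without GFP-TC 1. Against sECM only the ratio was 1.90-fold higher with overlap (exact permutation p = 0.40). In 8 ratios and 3 comparisons, 24 tests, the smallest Benjamini-Hochberg adjusted p was 0.96, so no ratio was called.

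Cd8a over Cd4 was 3.64, 3.98 and 3.73 with ThTC, 0.70, 3.89 and 4.15 with GFP-TC and 4.74, 1.66 and 1.98 with sECM only. GFP-TC 2 and 3 were as close together as the ThTC libraries, and GFP-TC 1 stood apart. The groups overlapped (exact permutation p = 0.90 for ThTC against GFP-TC and 0.40 against sECM only). Cd8b1 over Cd8a stayed between 1.02 and 1.96 over all 9 libraries.

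The ratios of Lck, Zap70 and Cd247 to Cd3e lay close together with ThTC, and those of GFP-TC 2 and 3 did too. With ThTC Lck over Cd3e was 1.14, 1.17 and 1.15, Zap70 over Cd3e 0.740, 0.801 and 0.785, and Cd247 over Cd3e 0.60, 0.63 and 0.60. In GFP-TC 2 and 3 these were 0.98 and 0.95 for Lck, 0.71 and 0.63 for Zap70 and 0.42 and 0.46 for Cd247. In GFP-TC 1 the first 2 ratios were 2.46 and 2.68, and Cd4 over Cd3e was 1.12, against 0.26 and 0.30 in GFP-TC 2 and 3. Cd3e was at 0.91 TPM in that library, and the depth behind so low a value is unknown. In sECM only 2 and 3 Cd247 over Cd3e was 1.48 and 1.12, above the 0.37 of sECM only 1. Cd247 over Cd3e was higher in all ThTC libraries than in all GFP-TC libraries (0.42 to 0.56), by 1.28-fold (exact permutation p = 0.10, adjusted p = 0.96). Cd2 over Cd3e was 0.85 to 1.15 with ThTC, within the range of both other groups.

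**Figure D4:**
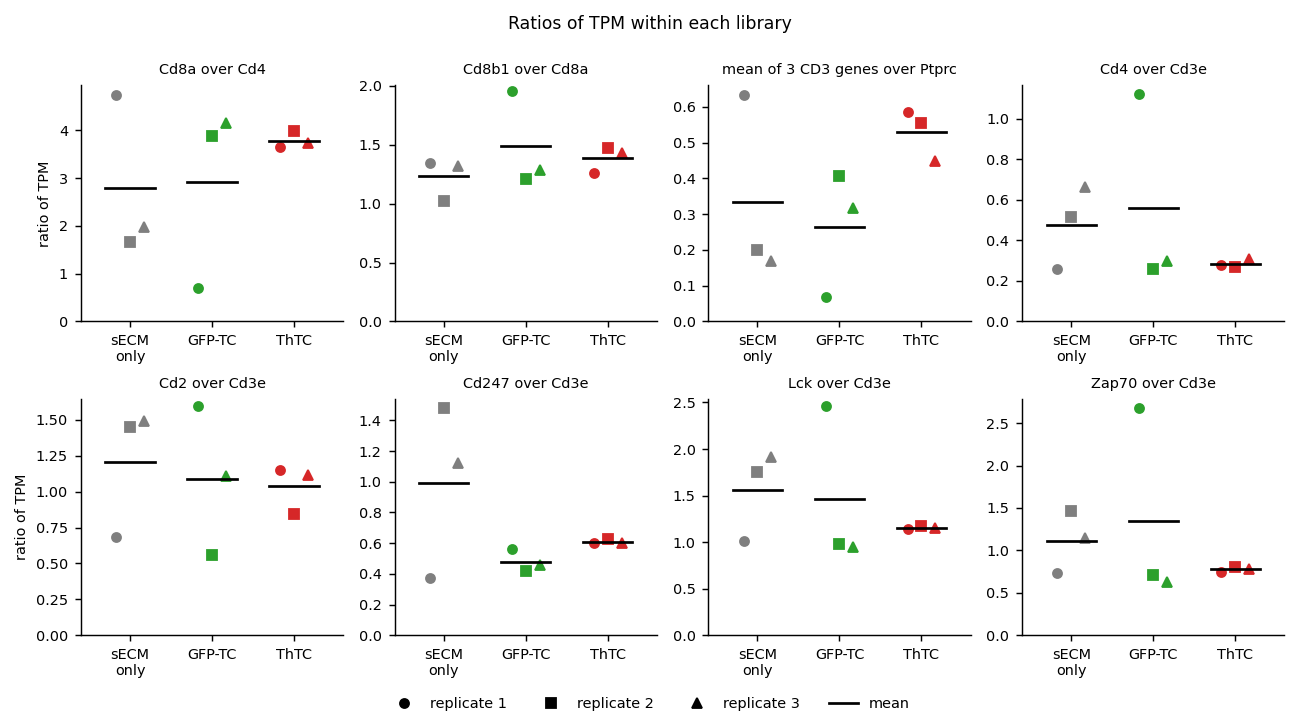
Ratios of TPM within each library (vertical axes, starting at 0) by group, with points for libraries and lines for means. The ThTC libraries lie close together for Lck over Cd3e (1.14 to 1.17), while GFP-TC 1 is lowest for Cd8a over Cd4 (0.70) and highest for Zap70 over Cd3e (2.68).

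The order of levels among members was similar in the groups. In the ThTC libraries Cd3g was highest at 25.04 ± 0.32 TPM (SD, n = 3), then Cd8b1 at 18.6 ± 3.02 TPM, and these did not overlap each other or the next gene. Lck (14.3 ± 0.80 TPM), Cd8a (13.4 ± 1.63 TPM), Cd2 (12.9 ± 2.70 TPM) and Cd3e (12.4 ± 0.81 TPM) came next, each overlapping its neighbour in this order, while Lck lay above Cd3e in every library. Zap70 (9.59 ± 0.66 TPM) lay below Cd3e but overlapped Cd2, Cd3d (7.91 ± 0.67 TPM) and Cd247 (7.54 ± 0.38 TPM) overlapped each other, and Cd4 (3.54 ± 0.51 TPM) was lowest. By their means, Cd3g and Cd8b1 were also the first and second genes with sECM only (12.5 ± 9.48 and 10.1 ± 9.36 TPM) and GFP-TC (12.3 ± 10.1 and 11.01 ± 8.75 TPM), where their ranges overlapped.

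The members moved together from library to library. As a description over 9 libraries that share tissue content, the likeness of 2 members (Pearson r of log2(TPM + 1)) had a median of 0.94 over the 45 pairs, from 0.81 (Cd247 with Cd8b1) to 0.99 (Cd8a with Cd8b1). Without GFP-TC 1 the median was 0.88 and the lowest 0.60 (Cd247 with Cd8a). For deviations from the group means, which leave out differences between groups, the median was 0.94. That value includes GFP-TC 1 and was not computed without it.

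Of 13176 other genes with a mean of 1 TPM or more (predicted and clone-named genes left out), those most like the mean of the members over the 9 libraries included genes of T and NK cells. Nkg7, a granule protein gene of cytotoxic cells, came first (r = 0.996, and 0.99 without GFP-TC 1), at 67.5 ± 1.89 TPM in ThTC, 35.2 ± 26.9 TPM in GFP-TC and 35.2 ± 21.5 TPM in sECM only. Cd96, a receptor of T and NK cells (r = 0.99), was at 3.30 ± 0.36, 1.87 ± 1.54 and 1.97 ± 1.20 TPM. Il2rb, a chain of the receptors for IL-2 and IL-15 (r = 0.98), was at 46.2 ± 1.18, 31.0 ± 21.2 and 28.7 ± 12.8 TPM. Cd27, a TNF receptor family member of T cells (4.43 ± 0.63, 2.63 ± 2.13 and 1.92 ± 1.05 TPM), and Ptprcap, a partner of CD45 (26.95 ± 1.48, 16.4 ± 7.89 and 16.7 ± 7.56 TPM), each had an r of 0.98. The other 5 of the first 10 were Cxcl16, a chemokine gene (r = 0.99), and the MHC class II genes H2-Eb1, H2-Ab1, Cd74 and H2-Aa (r = 0.98 to 0.99). For comparison, r was 0.88 for the macrophage gene Csf1r, 0.86 for Ptprc, 0.77 for the NK cell gene Ncr1, 0.65 for the myeloid gene Lyz2 and the neuron gene Snap25, 0.54 for the myelin gene Mbp and 0.35 for the B cell gene Cd79b. Without GFP-TC 1 these were 0.67, 0.63, 0.60, 0.57, 0.42, 0.36 and 0.084.

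The other genes of the pathway had smaller median differences. Of 19 listed kinases, adaptors and co-receptors that carry the signal onward, 16 were tested; 14 had a higher mean with ThTC than with GFP-TC and 15 than with sECM only, with median log2 fold changes of 0.41 and 0.36, and 0 were called in either (limma, lowest adjusted p = 0.32 and 0.69). Lat, the scaffold that ZAP-70 phosphorylates, was at 9.21 ± 3.46 TPM in ThTC, 4.12 ± 3.98 TPM in GFP-TC and 5.54 ± 3.05 TPM in sECM only. Sh2d1a, which encodes the adaptor SAP, was at 2.00 ± 0.30, 0.93 ± 0.49 and 0.72 ± 0.73 TPM, and Skap1, an adaptor for integrin activation, at 3.98 ± 0.79, 2.45 ± 1.84 and 1.81 ± 0.73 TPM. Plcg1, a phospholipase expressed in many cell types, had a lower mean with ThTC, at 36.9 ± 3.04, 49.4 ± 8.69 and 45.7 ± 2.00 TPM. Fyn, a kinase of T cells and brain, was at 56.5 ± 12.5, 62.6 ± 12.3 and 54.9 ± 1.49 TPM.

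Of 18 listed negative regulators, 17 were tested, of which 11 had a higher mean with ThTC than with GFP-TC and 13 than with sECM only (medians 0.34 and 0.17), with 0 called. Sla, an adaptor that dampens receptor levels, was at 24.2 ± 2.44, 14.2 ± 6.93 and 17.02 ± 3.26 TPM (ThTC, GFP-TC, sECM only). Sh2d2a, an adaptor that binds LCK, was at 13.6 ± 2.65, 7.09 ± 4.62 and 7.10 ± 3.08 TPM, and Cd5, an inhibitory receptor of T cells, at 3.88 ± 0.93, 2.30 ± 1.78 and 1.69 ± 0.65 TPM. Csk, the kinase that switches LCK off, was at 188 ± 15.9, 210 ± 9.60 and 212 ± 6.26 TPM. Dgkz, an enzyme that removes diacylglycerol, was at 159 ± 31.1, 199 ± 30.6 and 162 ± 11.05 TPM. Csk and Dgkz lay far above Lck, whose means were 14.3, 7.93 and 8.51 TPM. Which cells held their RNA was not tested. For GFP-TC against sECM only, Dgka (16.7 ± 2.63 against 12.8 ± 1.78 TPM) and Dok2 (6.53 ± 3.65 against 10.4 ± 4.17 TPM) had, with Dgkz, the smallest unadjusted p of this list.

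Of the 17 downstream genes, all tested, 6 had a higher mean with ThTC than with GFP-TC and 10 than with sECM only (medians -0.062 and 0.031), with 0 called. Coro1a, an actin regulator of white blood cells, was at 149 ± 16.96, 96.3 ± 34.8 and 93.2 ± 19.4 TPM, while Nfkb1 (111 ± 8.13, 135 ± 13.4 and 135 ± 8.81 TPM) and Nfatc3 (51.0 ± 4.94, 66.6 ± 9.08 and 64.1 ± 8.75 TPM), transcription factor genes of many cell types, had lower means with ThTC. Of 17 lineage factors, 16 were tested, of which 10 had a higher mean with ThTC in each comparison (medians 0.18 and 0.24), with 0 called. For ThTC against GFP-TC the smallest unadjusted p belonged to genes with lower means with ThTC that other cell types express as well: Ets1 (46.3 ± 1.83, 60.2 ± 5.03 and 55.2 ± 4.36 TPM), Runx1 (39.0 ± 4.98, 49.2 ± 7.22 and 46.7 ± 5.76 TPM) and Zbtb7b, which directs T cells to the CD4 lineage (77.5 ± 3.999, 94.1 ± 18.6 and 88.5 ± 3.04 TPM). For GFP-TC against sECM only, of the tested genes 9 of 16 signal carriers, 10 of 17 negative regulators, 11 of 17 downstream genes and 11 of 16 lineage factors had a higher mean with GFP-TC, and 0 were called. Of all tested genes 71.8% had a higher mean with GFP-TC in that comparison.

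The constant chain genes of the receptor itself were not analysed here. Genes of immature T cells were near 0: Rag1 lay at 0 to 0.04 TPM, Rag2 at 0 to 0.03 TPM, Ptcra at 0.08 to 0.55 TPM and Dntt at 0.25 to 1.09 TPM over the 9 libraries. Cd1d1, an antigen-presenting gene that many cells express, was at 5.67 to 9.06 TPM.

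Markers of other cells that could hold member RNA were measured beside these results. All 15 tested NK cell genes had a higher mean with ThTC than with GFP-TC, and 14 did against sECM only (median log2 fold changes 0.71 and 0.63, 0 called). Their summed TPM was 305 to 537 with ThTC, 70.9 to 284 with GFP-TC and 122 to 249 with sECM only. Some of these genes, such as Gzmb, Gzma, Prf1 and Nkg7, are known from cytotoxic T cells too. Against GFP-TC 6 of the 15 NK cell genes were higher without overlap: Gzma, Klrd1, Klre1, Klrc1, Klra7 and Nkg7. None was lower without overlap, beside 2.2% of tested genes higher and 16.9% lower. Against sECM only 8 were higher without overlap and 0 lower, beside 5.03% and 12.1% of tested genes. Ncr1, which is close to specific for NK cells, was at 2.33, 2.05 and 2.89 TPM in ThTC, 1.19, 1.59 and 2.86 TPM in GFP-TC and 1.81, 1.51 and 2.16 TPM in sECM only, and its groups overlapped. None of the NK cell genes was at 0 in a library, and their part in the levels of Cd2, Cd247, Lck and Zap70 was not tested.

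Monocyte and macrophage genes had higher means with ThTC too. Of 12, all had a higher mean with ThTC than with GFP-TC and 11 did against sECM only (medians 0.54 and 0.53, 0 called), with summed TPM of 1474 to 2605, 724 to 1586 and 1047 to 1320 with ThTC, GFP-TC and sECM only. GFP-TC 1 had the lowest sum. Of 10 dendritic cell genes 9 were tested, and 7 and 5 had a higher mean with ThTC (medians 0.23 and 0.017, 0 called), with summed TPM of 1406 to 1706, 1147 to 1416 and 1002 to 1388, most of it Bst2. The part of these cells in the levels of Cd4 and Cd8a was not tested. B and plasma cell genes were low, with summed TPM of 10.98 to 17.9, 13.2 to 17.4 and 14.3 to 20.4, and Ms4a1 at 0.21 to 0.78 TPM.

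Microglia and red blood cell genes differed in opposite directions. Of 8 microglia genes 7 had a higher mean with ThTC in each comparison (medians 0.48 and 0.50, 0 called), with summed TPM of 479 to 932 in ThTC, 311 to 723 in GFP-TC and 415 to 528 in sECM only. All 5 tested of 6 red blood cell genes had a lower mean with ThTC in both (medians -1.15 and -0.74, 0 called), with summed TPM of 147 to 524, 186 to 1206 and 368 to 704 in the same order. Their part in the members' values was not tested.

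Brain tissue content varied within groups and is given beside the members. GFP-TC 1, lowest for every member, also had the lowest score of neuron genes (-1.75, the mean log2 level centred per gene), while GFP-TC 3 was at 1.78 and ThTC 3 at 2.06. ThTC 1 had a neuron score of -1.26 and a members' score of 0.64, where ThTC 2 had a members' score of 0.58 and ThTC 3 of 0.76. With a brain tissue score as a covariate in limma, all 10 members kept a higher mean with ThTC in both comparisons (medians 1.04 and 0.78), 6 and 1 had an unadjusted p under 0.05 (24.2% and 11.6% of tested genes in that fit), and 0 members were called.

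**Figure D5:**
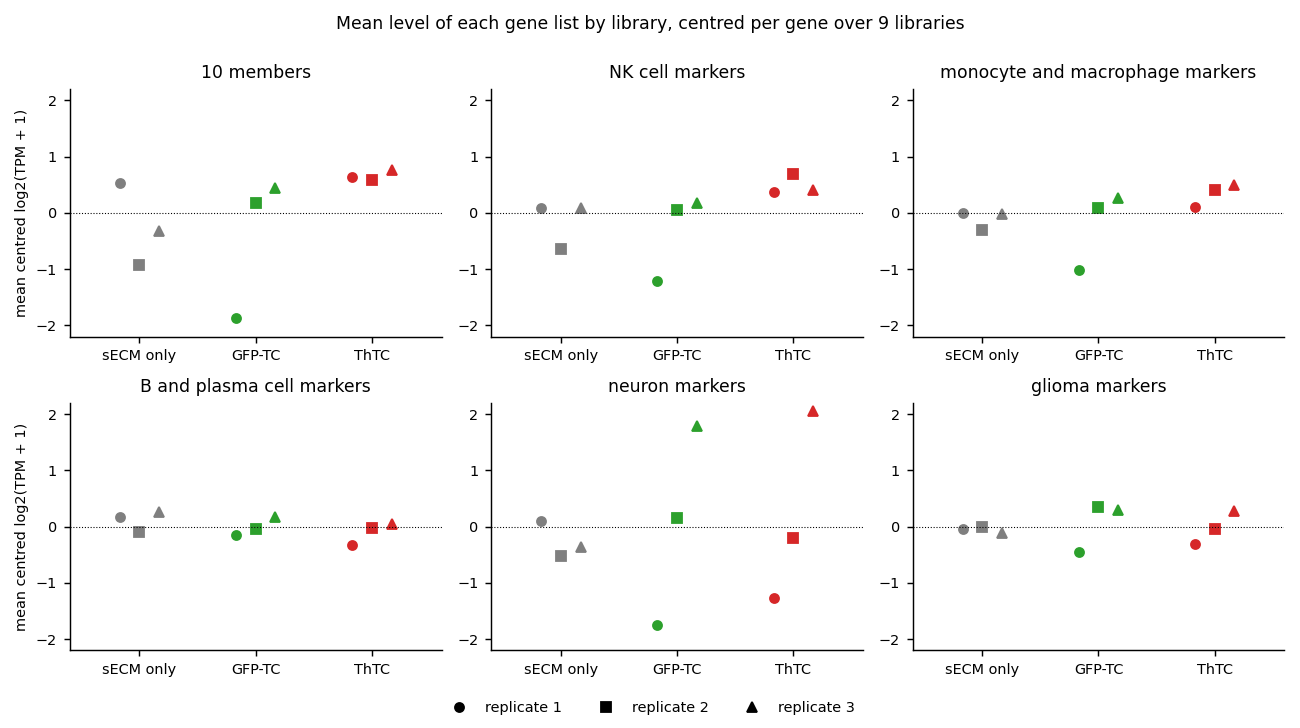
Mean log2(TPM + 1) of 6 gene lists, each gene centred over the 9 libraries (vertical axis), with points for libraries by group. GFP-TC 1 is lowest for the members (-1.88), NK cell genes (-1.22), monocyte and macrophage genes (-1.02) and neuron genes (-1.75), and the ThTC libraries are close together for the members but not for neuron genes.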

How the data were processed

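The 9 deposited files, 1 per library, gave TPM per gene, the unit in their headers as the authors deposited them, written with 2 decimals. The submitters' processing notes name HISAT, with no version, and the builds GRCm38.p6 and mm10, while the quantification tool, annotation and filters are not given in the sources used here. Library totals were at most 0.74 TPM off the sum that TPM has by definition. TPM keeps no depth, and since the sum is fixed, higher values of some genes go with lower values of others.

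Values were analysed as log2(TPM + 1), which understates the change of low genes. Counts of genes with a higher or lower mean used the mean on this scale. Genes reaching 1 TPM in 3 libraries or more were fitted in limma 3.58.1 (R 4.3.3, intensity trend, 9 libraries in 1 fit), and p-values were adjusted over all 13829 genes within each comparison at a threshold of 0.05. Ratios went into two-sided exact permutation tests in scipy 1.17.1, and figures drawn with matplotlib 3.10.9 in Python 3.11.15. The fit was tested on simulated data, with independent genes and the same SD of a gene in every group. The members' SD differed between groups and their levels moved together, so that test does not cover them. The alternatives were other pseudocounts, filters, scalings and fits, a replicate block, a brain tissue covariate and each library left out.

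The members and gene lists were chosen with earlier results of these data known. The rule for named genes took the members, Ptprc, the 10 most alike genes, and of each pathway list the 3 with the smallest p per comparison, of which not all are printed. Other genes named were taken from the marker lists or to show a range, after their values were seen.

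Same-numbered GFP-TC and ThTC libraries had correlated deviations from their group means (0.74, 0.12 and 0.87 for numbers 1, 2 and 3), all over 0.1, so the block is given for them. Differently numbered pairs of these groups ran from -0.80 (GFP-TC 3 with ThTC 1) to 0.38 (GFP-TC 1 with ThTC 2). The value for number 2 lay within that range, so it gives little ground for a pairing. What a shared number means is not stated in the labels. For sECM only the same-numbered values were -0.53, -0.14 and -0.19 with GFP-TC and -0.55, 0.28 and -0.21 with ThTC, and no pairing was assumed. The differently numbered sECM only 1 and GFP-TC 3 reached 0.61.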

Additional observations from a re-analysis of the deposited data

How the results depend on the processing

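In 20 alternatives for each comparison 0 members were called, and all 10 members tested kept a higher mean with ThTC in both comparisons with it (8 of 8 where a mean of 5 TPM was required). The adjusted p of the members ran from 0.13 to 0.93 for ThTC against GFP-TC, from 0.42 to 0.995 for ThTC against sECM only and from 0.50 to 1 for GFP-TC against sECM only. The spread over members moved most without GFP-TC 1, from 1.20 to 0.16 in that group. The replicate block changed no call of a member: 0 were called with it in all 9 libraries or in the 6 of a comparison. Median-of-ratios scaling moved the median over the tested genes for ThTC against GFP-TC (log2) from -0.10 to 0.02 and that over the members from 1.11 to 1.25. With 1 library left out, the members' median ran from 0.35 (without GFP-TC 1) to 1.62 for ThTC against GFP-TC and from 0.55 to 1.39 for ThTC against sECM only.

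For GFP-TC against sECM only, 2 members had a higher mean on the log2(TPM + 1) scale. This count was 0 with a pseudocount of 0.1 TPM and 1 with 0.5 TPM. It was 0 with median-of-ratios scaling, quantile normalization or the brain tissue covariate, and 0 to 10 with 1 library left out. Cd3e changed sign, to -0.088 and -0.015 with pseudocounts of 0.1 and 0.5 TPM, -0.063 with median-of-ratios scaling, -0.067 with quantile normalization and -0.11 with the covariate. Cd8b1 changed to -0.011 with the pseudocount of 0.1 TPM, -0.052 with median-of-ratios scaling, -0.0084 with quantile normalization and -0.13 with the covariate. With 1 library left out the log2 fold changes ran from -0.63 to 0.24 for Cd3d, -0.44 to 0.93 for Cd3e, -1.09 to 0.73 for Cd3g, -0.93 to 0.11 for Cd247, -0.30 to 0.29 for Cd4, -0.65 to 0.94 for Cd8a, -0.62 to 0.98 for Cd8b1, -0.77 to 0.48 for Cd2, -0.55 to 0.40 for Lck and -0.32 to 0.35 for Zap70.

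Differences in log2 ratios near 0 changed sign too. With 1 TPM added to both genes, Cd8b1 over Cd8a for ThTC against GFP-TC was 0.081 instead of -0.067, and Cd4 over Cd3e for GFP-TC against sECM only -0.089 instead of 0.0011. With 1 library left out, ThTC against GFP-TC ran from -0.086 to 1.20 for Cd8a over Cd4, -0.20 to 0.15 for Cd8b1 over Cd8a, -1.02 to 0.032 for Cd4 over Cd3e, -0.37 to 0.39 for Cd2 over Cd3e, -0.43 to 0.26 for Lck over Cd3e and -0.83 to 0.21 for Zap70 over Cd3e. ThTC against sECM only ran from -0.52 to 0.043 for Cd2 over Cd3e. GFP-TC against sECM only ran from -0.60 to 0.69 for Cd8a over Cd4, -0.92 to 0.37 for the mean of the CD3 genes over Ptprc, -0.67 to 0.39 for Cd4 over Cd3e, -0.57 to 0.22 for Cd2 over Cd3e, -0.64 to 0.048 for Lck over Cd3e and -0.68 to 0.37 for Zap70 over Cd3e. The cause of these changes was not tested.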
